A study of Sus scrofa with 22 samples.

Results

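miR-455-5p and miR-378 are 2 microRNAs that promote the brown, heat-producing adipocyte programme in mouse, and they were followed here in subcutaneous fat of pigs. They were found in the count tables by name, after prefixes and alternative-name marks were stripped, and the reads of all sequences with a name were summed per library. They make up 2 of 250 miRNA names and hold 21 (miR-455-5p) and 158 (miR-378) of 8489 sequences. The other arm of the miR-455 hairpin, miR-455-3p, was not analysed here. Small RNA was sequenced from 22 females aged 6 months, in 6 groups by breed and by fat that the labels class as thick or thin: 5 thick and 2 thin Hampshire libraries, 4 thick and 3 thin Pietrain libraries, and 4 thick and 4 thin Large White libraries. The labels name no treatment or genetic modification, and they do not say how thick and thin fat were told apart or whether the breeds were processed together, so breed and any batch of processing cannot be told apart. Library totals ran from 431542 to 3137757 reads.

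MicroRNAs are short RNAs that guide Argonaute proteins to messenger RNAs, mainly through the seed, bases 2 to 8 of the mature strand, so a read that starts 1 base later carries another seed. In mouse, miR-455 is induced by cold and BMP7 and drives brown adipocyte differentiation, while miR-378 expands brown fat and is also abundant in muscle and white fat. Pigs lack a functional UCP1, the protein that makes heat in brown fat of most mammals. In the RefSeq annotation of Sscrofa11.1, MIR455 lies within COL27A1, a cartilage collagen gene, MIR378-1 lies within PPARGC1B, a coactivator of mitochondrial genes, MIR378-2 lies within BCAS3 and MIR378B lies within RGS3.

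The sequences that the results turn on are given 5′ to 3′ as deposited, with the seed in capitals, except that the A16G form has base 16 in capitals; positions are counted from 1 at the 5′ end of the most abundant sequence. The first pair are the leading forms of miR-455-5p, which differ in the last base, and the rest are the forms of miR-378 described below.
miR-455-5p, most abundant: uAUGUGCCuuuggacuacaucgu
miR-455-5p, U23C: uAUGUGCCuuuggacuacaucgc
miR-378, most abundant: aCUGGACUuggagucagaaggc
miR-378, C22U: aCUGGACUuggagucagaaggu
miR-378, starting 1 base later: cUGGACUUggagucagaaggcu
miR-378, A1C: cCUGGACUuggagucagaaggc
miR-378, A16G: acuggacuuggagucGgaaggc
joint rows of miR-378 and miR-378b-3p, most abundant: aCUGGACUuggagucaga
miR-378-5p, most abundant: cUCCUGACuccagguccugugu

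No other miRNA name had a leading sequence with the miR-455-5p seed AUGUGCC. The miR-378 seed CUGGACU was shared with the rows that the tables name for both miR-378 and miR-378b-3p. No leading sequence of another name had the seed UGGACUU of the later-starting miR-378 reads.

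miR-455-5p was higher in Hampshire fat than in fat of the other breeds. In Hampshire thick fat it had 759, 736, 566, 1081 and 859 CPM (read counts relative to library size, scaled to effective library sizes by TMM), and in Hampshire thin fat 647 and 1258. In Pietrain thick fat it had 261, 357, 320 and 341 CPM, and in Pietrain thin fat 289, 393 and 373. In Large White thick fat it had 351, 387, 305 and 541 CPM, and in Large White thin fat 433, 382, 618 and 532. Every Hampshire library lay above every Pietrain library, while the Hampshire and Large White ranges overlapped between 566 and 618 CPM. The mean was 844 ± 246 CPM (SD, n = 7) in Hampshire, against 334 ± 46.5 (SD, n = 7) in Pietrain and 444 ± 109 (SD, n = 8) in Large White.

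The log2 fold change of miR-455-5p was 1.38 ± 0.19 (SE) in Hampshire over Pietrain, with a 95% interval of 0.97 to 1.79 (edgeR quasi-likelihood, adjusted p = 5.34e-05). In Hampshire over Large White it was 0.98 ± 0.18, with an interval of 0.60 to 1.37 (edgeR adjusted p = 0.000847). In Pietrain over Large White it was -0.40 ± 0.18 (edgeR adjusted p = 0.393), which did not pass. Of 206 miRNAs tested, 10.7% were called higher in Hampshire than in Pietrain and 9.22% higher in Hampshire than in Large White. Ranges that did not overlap between Hampshire and Pietrain were found for 8.74% of the 206. Without Hampshire thin fat replicate 2, the library with the highest miR-455-5p, the fold changes were 1.07 (edgeR adjusted p = 0.00175) over Pietrain and 0.68 (edgeR adjusted p = 0.0377) over Large White, and the miRNAs called in both directions numbered 22 in each comparison, against 39 over Pietrain and 36 over Large White with it.

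Within each class of fat the breed difference of miR-455-5p had the same sign, but only the one over Pietrain in thick fat was called under every alternative. In thick fat it was 1.32 in Hampshire over Pietrain (edgeR adjusted p = 0.00107), called under all 36 alternatives. In thick fat over Large White it was 1.01 (edgeR adjusted p = 0.0137), and 4 of 36 alternatives lost the call, among them upper quartile scaling (0.57, edgeR adjusted p = 0.114) and leaving out Large White thick fat replicate 1 (0.96, edgeR adjusted p = 0.0512) or replicate 3 (0.91, edgeR adjusted p = 0.0617). In thin fat, with 2 Hampshire libraries, it was 1.44 over Pietrain (edgeR adjusted p = 0.0064), and 2 of 36 alternatives lost the call. In thin fat over Large White it was 0.96 (edgeR adjusted p = 0.0453), and 21 of 36 alternatives lost the call, among them library totals as the scale (0.54, edgeR adjusted p = 0.215) and limma-voom (0.88, adjusted p = 0.0884). Without Hampshire thin fat replicate 2 the thin fat values were 0.84 over Pietrain (edgeR adjusted p = 0.263) and 0.32 over Large White (edgeR adjusted p = 0.665), with 1 Hampshire library left, which is assumed to vary like the other groups.

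Of the 206 miRNAs, 5.83% were called higher in Hampshire than in Pietrain and 3.88% higher than in Large White in thick fat, and 5.34% in each comparison in thin fat. The split of calls depended on the scale. In thick fat, 12 were higher and 7 lower over Pietrain, against 4 and 33 with upper quartile scaling, and 8 were higher and 5 lower over Large White, against 2 and 23. In thin fat, 11 were higher and 10 lower over Pietrain, against 6 and 14 with library totals, and 11 were higher and 6 lower over Large White, against 0 and 13. Over both classes, 22 were higher and 17 lower over Pietrain, against 15 and 26 with library totals, and 19 were higher and 17 lower over Large White, against 13 and 32. The Hampshire libraries also differed in composition: with library totals only as the scale, miR-455-5p was 0.70 higher than in Large White (edgeR adjusted p = 0.00919) while the median over all miRNAs was -0.29.

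**Figure D1:**
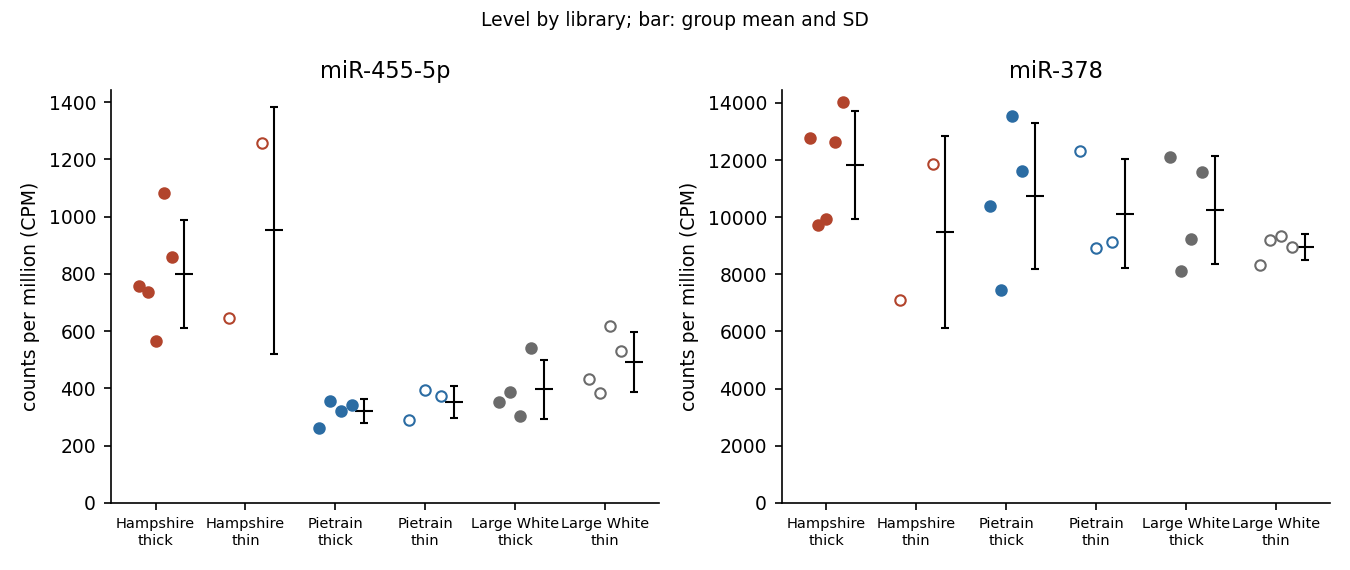
Level of miR-455-5p and miR-378 in each library, in CPM on a linear axis from 0. Each point is 1 library, filled for thick and open for thin fat, and the bar is the group mean with its SD; the Hampshire points of miR-455-5p lie at 566 CPM or more and the Pietrain points at 393 or less, while the miR-378 points of the 3 breeds overlap.

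miR-378 was much more abundant than miR-455-5p, and its levels overlapped between all 3 breeds. In Hampshire thick fat it had 12786, 9732, 9931, 12630 and 14040 CPM, and in Hampshire thin fat 7114 and 11872. In Pietrain thick fat it had 10385, 7446, 13535 and 11625 CPM, and in Pietrain thin fat 12327, 8934 and 9115. In Large White thick fat it had 12094, 8126, 9230 and 11582 CPM, and in Large White thin fat 8326, 9197, 9346 and 8970. The highest and the lowest library were both Hampshire. By mean CPM over all libraries, miR-378 ranked 18 and miR-455-5p ranked 60 of 250 names, each with reads in all 22 libraries.

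The mean of miR-378 was 11158 ± 2364 CPM (SD, n = 7) in Hampshire, 10481 ± 2142 (SD, n = 7) in Pietrain and 9609 ± 1449 (SD, n = 8) in Large White. The neighbours in this order did not differ beyond their spread. The log2 fold change was 0.14 in Hampshire over Large White, with a 95% interval of -0.18 to 0.47 (edgeR adjusted p = 0.59). It was 0.02, with an interval of -0.31 to 0.36, in Hampshire over Pietrain (edgeR adjusted p = 0.96), and 0.12, with an interval of -0.19 to 0.43, in Pietrain over Large White (edgeR adjusted p = 0.923). Both Hampshire values turned negative with other scalings, to -0.06 over Large White and -0.23 over Pietrain with upper quartile scaling, so no direction is given for miR-378 between breeds. Reads of miR-378 per read of miR-455-5p came to 13.7 ± 3.20 (SD, n = 7) in Hampshire, 32.4 ± 9.55 (SD, n = 7) in Pietrain and 22.8 ± 6.60 (SD, n = 8) in Large White.

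Neither miRNA differed detectably between thick and thin fat. Over all breeds the log2 fold change of thick over thin fat was -0.23 ± 0.15 for miR-455-5p, with a 95% interval of -0.55 to 0.08, and 0.20 ± 0.13 for miR-378, with an interval of -0.07 to 0.46 (edgeR adjusted p = 1.0 for both). No miRNA of 206 was called (0.0%), while 12 had an unadjusted edgeR p under 0.05 and DESeq2 called 6. Within breeds the fold change of miR-455-5p was -0.24 in Hampshire, -0.12 in Pietrain and -0.30 in Large White, and that of miR-378 was 0.34, 0.10 and 0.20 in that order (lowest edgeR adjusted p = 0.933). Intervals were wide: in Hampshire, with 2 thin fat libraries, they reached from -1.11 to 0.64 for miR-455-5p and from -0.34 to 1.02 for miR-378. The test for a fat difference that varies between breeds gave an edgeR adjusted p of 1.0 for both.

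The labels of 1 pair of Large White libraries bear on this comparison. The authors' deposited table of fat classes matched a refit of their counts (r = -1, the deposited sign being thin minus thick) in Hampshire and Pietrain, but in Large White it did so only with thick fat replicate 1 and thin fat replicate 1 exchanged (r = -0.653 with the labels as given). With them exchanged, the Large White fold change of thick over thin fat was -0.05 for miR-378, against 0.20 as labelled, and neither was called. That of miR-455-5p stayed between -0.48 and -0.14 over all 20 alternatives run for it, this exchange among them, and was never called.

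**Figure D2:**
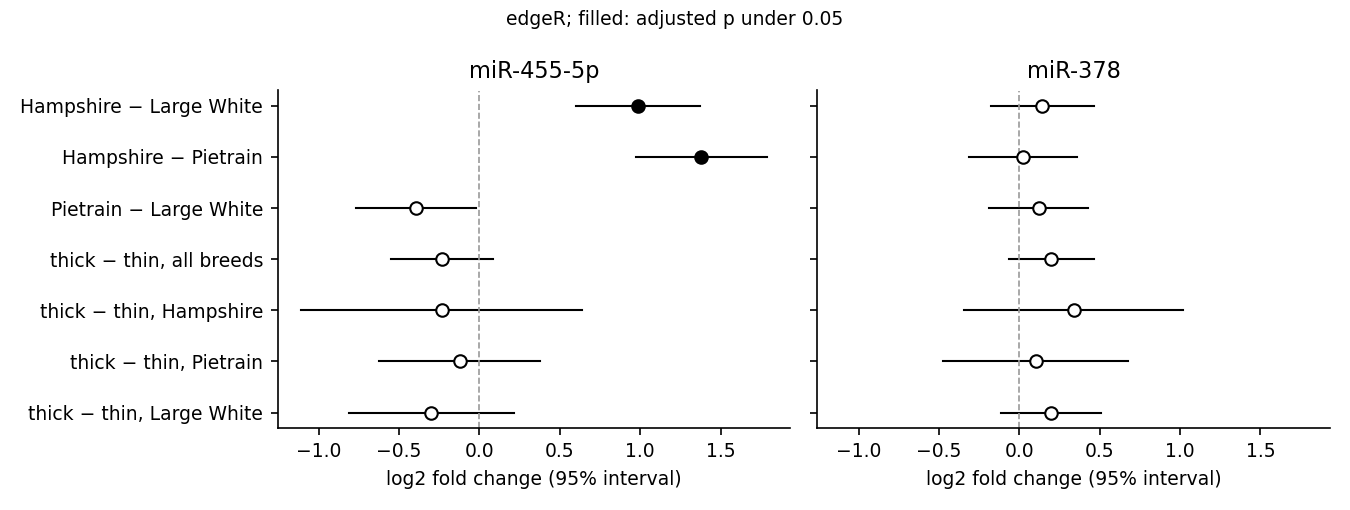
Log2 fold changes of miR-455-5p and miR-378 from edgeR in 3 comparisons of breeds and 4 of thick with thin fat, with 95% intervals as lines. Filled points have an adjusted p under 0.05, which holds for miR-455-5p in Hampshire over Large White (0.98) and Hampshire over Pietrain (1.38).

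Most reads of both miRNAs shared 1 body and differed at the 3′ end. The most abundant sequence held 67.0% of miR-455-5p reads, and the U23C form another 10.7%. The U23C share of miR-455-5p reads was 12.2% ± 1.18 (SD, n = 7) in Hampshire, 9.82% ± 0.77 (SD, n = 7) in Pietrain and 10.0% ± 0.987 (SD, n = 8) in Large White, with overlapping ranges. For miR-378 the most abundant sequence held 40.2% of reads and the C22U form 11.0%, followed by forms that lacked the last base (8.44%) or were longer by an A (8.32%) or a U (7.02%). Of 24 comparisons of form, 3 passed the adjustment, and all 3 concerned miR-378 between breeds. The share of its most abundant sequence was 38.9% ± 0.619 (SD, n = 7) in Hampshire and 41.1% ± 1.13 (SD, n = 8) in Large White, a difference of -2.27 points (exact permutation test, two-sided, adjusted p = 0.00373). Mean read length, the remaining measure beside the match of the first 7 bases given below, gave no call for either miRNA.

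The 5′ start of miR-378 differed between breeds. Reads that began 1 base later, and so carried the seed UGGACUU, made up 10.9% to 12.1% of miR-378 reads in Hampshire libraries (median 11.2%). They made up 9.88% to 10.6% in Pietrain libraries (median 10.3%) and 8.41% to 9.97% in Large White libraries (median 9.58%). The Hampshire libraries all lay above both other breeds, and Pietrain and Large White overlapped narrowly. The mean share was 11.3% ± 0.434 (SD, n = 7) in Hampshire, 10.2% ± 0.267 (SD, n = 7) in Pietrain and 9.40% ± 0.477 (SD, n = 8) in Large White. Another measure, the same-start share, counted reads whose first 7 bases match those of the most abundant sequence. A read with a changed base among these 7, such as A1C, counts as not matching, so this share does not measure the 5′ start alone. It stood at 88.3% ± 0.321 (SD, n = 7) in Hampshire, 88.9% ± 0.317 (SD, n = 7) in Pietrain and 90.2% ± 0.487 (SD, n = 8) in Large White. The difference was -1.84 points in Hampshire against Large White (exact permutation p = 0.000155, the smallest these groups allow, adjusted p = 0.00373). It was -1.33 points in Pietrain against Large White (exact permutation, adjusted p = 0.00373) and -0.51 points in Hampshire against Pietrain (exact permutation, adjusted p = 0.0734).

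The share that starts exactly 1 base later, a measure added after the data were seen, differed in all 3 pairs. The differences were 1.88 points in Hampshire against Large White (exact permutation, adjusted p = 0.000622), 1.04 points in Hampshire against Pietrain (exact permutation, adjusted p = 0.000829) and 0.84 points in Pietrain against Large White (exact permutation, adjusted p = 0.000829). Between thick and thin fat it differed by 0.26 points (exact permutation within breeds, adjusted p = 0.16). Of 8 miRNAs with reads in all 22 libraries, a mean of at least 1000 CPM and a median later-start share of at least 1%, miR-378 was the 1 (12.5%) whose ranges did not overlap between Hampshire and Large White, and likewise between Hampshire and Pietrain. miR-10b, whose later-start share is the highest of the 8, had 13.3%, 13.5% and 14.0% in Hampshire, Pietrain and Large White. In miR-455-5p the later start was rare. Its same-start share was 99.7% ± 0.328 in Hampshire, 99.8% ± 0.416 in Pietrain and 99.5% ± 0.434 in Large White (SD, n = 7, 7 and 8), with no call.

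**Figure D3:**
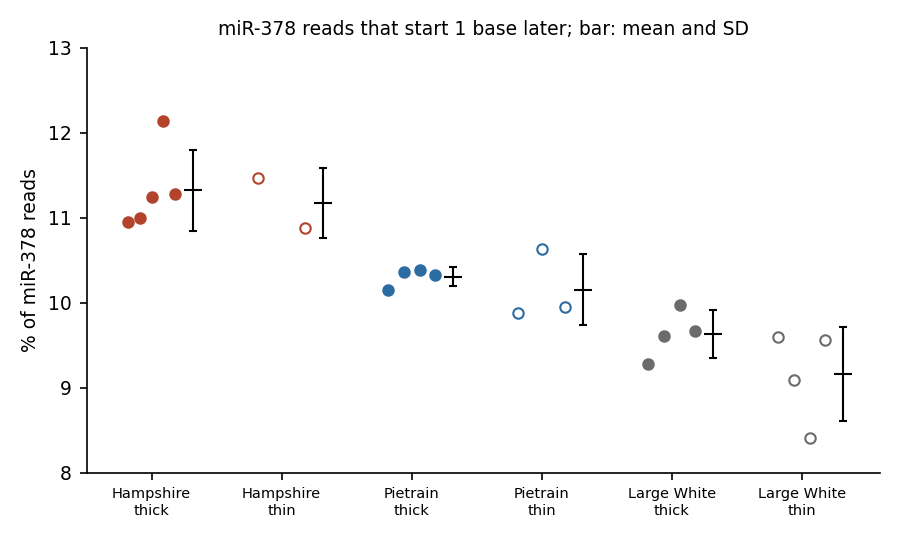
Percent of miR-378 reads that start 1 base after the most abundant sequence, by library, on an axis that does not start at 0. Points are libraries, filled for thick and open for thin fat, and bars are group means with SD; all Hampshire points are at 10.9% or more and all Large White points at 9.97% or less.

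Short reads named for both miR-378 and miR-378b-3p were nearly absent from 7 libraries. The tables name 24 sequences of 17 to 23 nt, 98.5% of whose reads are of 21 nt or less, for both miR-378 and miR-378b-3p, and these rows were not counted as miR-378, whose own sequences are 20 to 25 nt long. In 15 libraries they came to 5.56% to 7.06% of the summed miR-378 and joint reads. In the other 7 they came to 0.129% or less, with 0 reads in Hampshire thick fat replicates 2 and 4 and Hampshire thin fat replicate 1, and with 14, 9, 15 and 7 reads in Pietrain thick fat replicates 3 and 4 and Pietrain thin fat replicates 1 and 3. No Large White library was among them. No library lay between 0.129% and 5.56%, and miR-378 itself was present in the 7 libraries at 7114 to 13535 CPM, against 7446 to 14040 CPM in the 15 others. Gaps of this kind were not particular to these rows: of the names with reads in at least 11 libraries, 22, the joint rows among them, were at 0 in 1 or more libraries where at least 100 reads were expected from the median of the libraries with reads. They include miR-199ab-3p, miR-199b-5p and miR-214-3p, each at 0 in 7 such libraries, and neither miR-455-5p nor miR-378. Of these libraries, 1, 1 and 3 in that order were among the 7 that nearly lacked joint reads. For 3 names beside the joint rows, all such libraries were among those 7. The smallest count above 0 in every table is 6, so a 0 can stand for up to 5 reads of each sequence.

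Without these 7 libraries miR-455-5p was called higher in Hampshire by 1.40 over Pietrain (edgeR adjusted p = 0.00715) and by 1.07 over Large White (edgeR adjusted p = 0.00267), and miR-378 was not called between breeds. The later-start share of miR-378 differed without them by 1.69 points in Hampshire against Large White (exact permutation, adjusted p = 0.00808), by 0.71 points in Hampshire against Pietrain (exact permutation, adjusted p = 0.0381) and by 0.98 points in Pietrain against Large White (exact permutation, adjusted p = 0.0242).

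An internal change, A16G, was singled out after its values were seen. It was the most abundant single-base form of miR-378 away from the ends, with 1436 reads over all 22 libraries, and its share of A16G and unchanged reads had a median of 0.864%. In Hampshire thin fat replicate 1 it was 3.23% (98 of 3033 reads, 95% Wilson interval 2.66% to 3.92%, counting error only). The next highest was Large White thick fat replicate 1, at 1.62% (40 of 2462 reads, interval 1.20% to 2.20%). The other libraries lay between 0.365% and 1.36%. In Hampshire both thin fat libraries, at 3.23% and 1.29%, lay above all 5 thick fat libraries, at 0.365% to 0.957%, while thick and thin fat overlapped in Pietrain and in Large White. Of 27 such comparisons of thick with thin fat, 9 measures in each breed, ranges did not overlap in 2, both in Hampshire. The other was the reads of miR-378 per read of miR-455-5p, at 11.7 to 17.5 in Hampshire thick fat and 9.44 and 11.0 in Hampshire thin fat. Neither was tested. Hampshire thin fat replicate 1 was also the library with the lowest miR-378 level and the highest level of the liver miRNA miR-122, at 21393 CPM, and it had no short joint reads; their part in the A16G share was not tested.

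**Figure D4:**
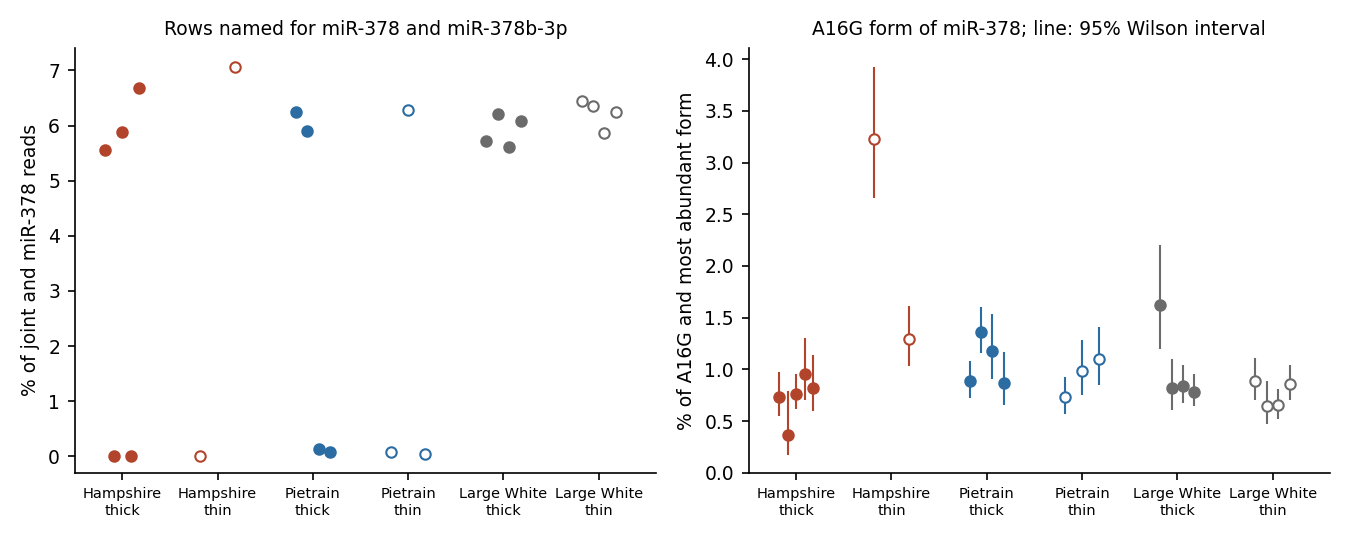
Left, reads named for both miR-378 and miR-378b-3p as a percent of these and the miR-378 reads, by library; 7 Hampshire and Pietrain libraries lie at 0.129% or less and 15 libraries at 5.56% or more. Right, the A16G form as a percent of A16G and unchanged miR-378 reads, with 95% Wilson intervals as lines; Hampshire thin fat replicate 1 is highest at 3.23%.

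In the authors' deposited tables of fat classes, which test single sequences, no miR-455-5p sequence had an adjusted p under 0.05 in any breed; over all sequences the share was 0.0185% in Hampshire and 0.0% in Large White. One miR-378 sequence of 132 did in the authors' deposited Pietrain table, where 1.26% of 7039 sequences passed. It was the A1C form, with 6, 0, 0 and 0 reads in Pietrain thick fat and 52, 29 and 39 reads in Pietrain thin fat, and 0 reads in every Hampshire and Large White library. The authors' deposited log2 fold change, thin minus thick, was 5.12 ± 1.14 (SE, adjusted p = 0.000865 by DESeq2). The Pietrain thin fat libraries also held more such first bases in other miRNAs: over 47 sequences that differ from the leading sequence of their name by a C at base 1, reads came to 0.443% to 0.467% of those of the leading sequences in the 3 Pietrain thin fat libraries, against 0.261% to 0.311% in the other 19 libraries. Of the 89 Pietrain sequences in the authors' deposited table with an adjusted p under 0.05, 26 differed from the leading sequence of their name by the first base alone, and 7 of these 26 had C there, all 7 higher in thin fat. The part of this in the A1C call was not tested.

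With reads summed by name, so that MIR378-1 and MIR378-2 were not told apart, miR-378 was by far the more abundant arm in every breed. Its reads outnumbered those of miR-378-5p by 8.59 ± 0.458 on the log2 scale in Hampshire (SD, n = 7), 8.33 ± 0.210 in Pietrain (SD, n = 7) and 8.47 ± 0.315 in Large White (SD, n = 8). No pair of breeds was called (lowest adjusted p = 0.393, exact permutation over 4 comparisons, added after the data were seen). The lowest ratio, 7.64, was in Hampshire thin fat replicate 2, and without it the difference of Hampshire against Pietrain was 0.42 (exact permutation, adjusted p = 0.021). miR-378-5p had few reads, from 10 in Hampshire thick fat replicate 2 to 107 in Large White thick fat replicate 4. Its sequences with counts under 6 in a library are listed as 0, which raises the ratio most in shallow libraries.

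No relation between miR-455-5p and miR-378 across libraries passed a test. Over all 22 libraries Pearson's r was 0.24 (permutation p = 0.289) and Spearman's rho 0.12 (permutation p = 0.607), on the log2(CPM + 1) scale. Without the 2 libraries farthest from the median of miR-455-5p, r was 0.06. Within breeds r was 0.58 in Hampshire (n = 7, exact permutation p = 0.178), -0.53 in Pietrain (n = 7, exact permutation p = 0.228) and 0.03 in Large White (n = 8, exact permutation p = 0.937). After adjustment over the 8 p-values of these 4 relations the lowest p for r was 0.457.

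**Figure D5:**
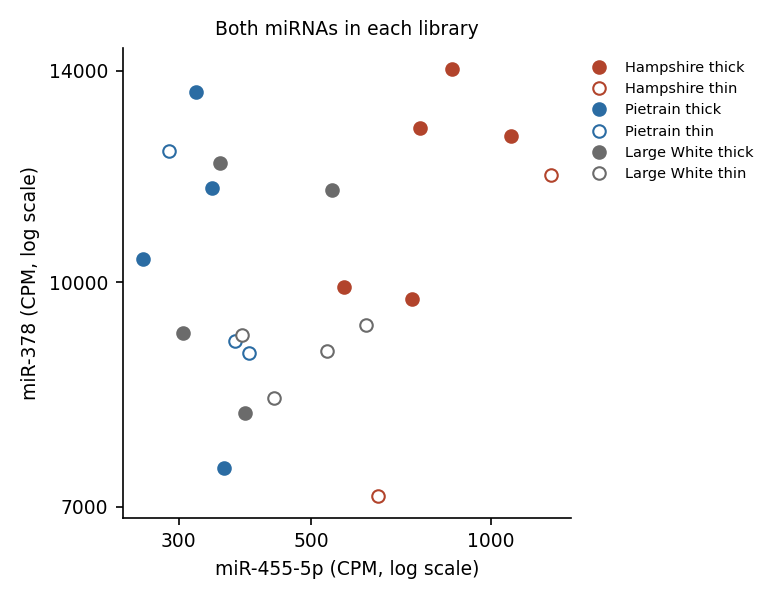
miR-378 against miR-455-5p in each library, both in CPM on log axes, coloured by breed with thick fat filled and thin fat open. The Hampshire points lie to the right at 566 CPM or more of miR-455-5p, and within no breed does the relation pass its test.

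The miRNAs whose pattern was most like each were found by Spearman's rho over the 22 libraries, among 205 other miRNAs. For miR-455-5p they were miR-499-5p (rho = 0.87), miR-148a-3p (rho = 0.85) and miR-144 (rho = 0.80). After breed means were subtracted they were miR-148a-3p (0.78), miR-499-5p (0.71) and miR-146a-5p (0.61). For miR-378 they were miR-574-3p (0.82), miR-4334-3p (0.72) and miR-378-5p (0.69), and with breed means subtracted miR-378-5p (0.78), miR-339-5p (0.72) and miR-4334-3p (0.72). All points share a library's depth and scaling. miR-574-3p was listed at 0 in 5 libraries where at least 100 reads were expected, so its rank includes these zeros. The rank of miR-144 likewise includes zeros, in 12 libraries, every Pietrain library among them. miR-499-5p, a muscle miRNA from an intron of a myosin gene, miR-148a-3p, an abundant adipocyte miRNA, and miR-144, a red blood cell miRNA, belong to the marker lists below.

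Some markers of other cell types differed between breeds, in most lists beside members that did not. Of 6 muscle miRNAs 3 were in the files, miR-133a-3p, miR-206 and miR-499-5p, none at 0 in any library. They summed to 317 to 2462 CPM in Hampshire (median 1101), 262 to 1846 in Pietrain (median 475) and 273 to 1129 in Large White (median 381), which overlap widely. miR-499-5p was higher in Hampshire over Pietrain by 1.27 (edgeR adjusted p = 0.00191) and not called over Large White (0.72, edgeR adjusted p = 0.0558), and the muscle miRNAs miR-133a-3p and miR-206 were not called in either comparison.

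The 3 red blood cell miRNAs, miR-451, miR-486 and miR-144, summed to 434 to 1937 CPM in Hampshire (median 612), 390 to 1189 in Pietrain (median 791) and 355 to 776 in Large White (median 504). miR-144 was low, with 7.53 to 64.8 CPM in all 7 Hampshire libraries, 0 in every Pietrain library and up to 15.6 CPM in 3 of 8 Large White libraries. It was called higher in Hampshire over Pietrain (edgeR adjusted p = 0.00452) and not over Large White (edgeR adjusted p = 0.0902). miR-486 of the same list fell by 0.79 in Hampshire over Pietrain (edgeR adjusted p = 0.0411), and miR-451 was not called.

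The 2 liver miRNAs, miR-122 and miR-192, summed to 20.1 to 26730 CPM in Hampshire (median 3354), 0 to 7803 in Pietrain (median 387) and 0 to 3675 in Large White (median 376). miR-192 had reads in 4 of 7 Hampshire libraries and was at 0 in every Pietrain and Large White library. It was called higher in Hampshire over Large White (edgeR adjusted p = 0.0396) and not over Pietrain (edgeR adjusted p = 0.0600). miR-122 was not called in either comparison. Of the 2 miR-140 arms, markers of cartilage, miR-140-3p fell in Hampshire by 1.14 over Pietrain (edgeR adjusted p = 4.85e-05) and by 0.68 over Large White (edgeR adjusted p = 0.00297), and miR-140-5p was not called. Of 4 smooth muscle and stroma miRNAs, miR-145-5p, miR-145-3p and miR-214-3p were called lower in Hampshire in both comparisons. Of all 206 miRNAs, 8.25% were called lower in each. These 3 had no reads in 4, 4 and 7 Hampshire libraries in that order, and a name absent from a breed's counts was set to 0. miR-143-3p was not called. The nerve miRNA miR-9 rose in Hampshire by 1.15 over Pietrain (edgeR adjusted p = 0.00272) and by 1.45 over Large White (edgeR adjusted p = 0.000393). Of 2 endothelial, 3 epithelial and 4 leukocyte miRNAs tested, 1 was called, the leukocyte miRNA miR-223. It was higher in Hampshire over Pietrain (edgeR adjusted p = 0.0275) and at 0 in every Pietrain library. Of all 206 miRNAs, 10.7% were called higher in Hampshire over Pietrain and 9.22% over Large White.

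Of 6 miRNAs abundant in adipocytes, 5 were in the files and 4 were tested. They summed to 319366 to 573024 CPM in Hampshire (median 514258), 273902 to 402909 in Pietrain (median 331218) and 235456 to 433577 in Large White (median 306511) with overlapping ranges, and by median miR-148a-3p was the most abundant of them in each breed. miR-148a-3p rose by 0.85 in Hampshire over Large White (edgeR adjusted p = 0.00068) and by 0.88 over Pietrain (edgeR adjusted p = 0.000543). miR-103 of the same list fell by 0.94 in Hampshire over Large White (edgeR adjusted p = 0.000847) and by 0.92 over Pietrain (edgeR adjusted p = 0.00105). miR-143-3p and miR-26a were not called. The part of these markers in the miR-455-5p difference was not tested, and in bulk tissue fewer cells of a type and less RNA per cell cannot be told apart. Without the 2 libraries richest in miR-122, Hampshire thin fat replicate 1 and Hampshire thick fat replicate 3, miR-455-5p was higher in Hampshire by 1.51 over Pietrain (edgeR adjusted p = 2.35e-05) and by 1.19 over Large White (edgeR adjusted p = 0.000174).

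Other miRNAs with a known part in brown or beige fat did not move as a block. Of 15 miRNAs listed as promoters of the brown or beige programme, 12 were in the files. Hampshire over Pietrain, 10.7% of the 206 miRNAs rose and 8.25% fell. Of the 12 promoters, 3 rose, 1 fell and 8 did not pass, with a median log2 fold change of -0.06 beside -0.04 over all miRNAs. Those that rose were miR-455-5p, miR-32 (1.76, edgeR adjusted p = 5.34e-05), which supports brown fat thermogenesis in mouse, and miR-182 (1.23, edgeR adjusted p = 0.0292), which supports brown adipocyte identity in mouse. The promoter that fell, as 8.25% of the 206 miRNAs did in each of these comparisons, was miR-365-3p (-0.77, edgeR adjusted p = 0.019), which is made with miR-193b from a cluster enriched in mouse brown fat. Over Large White, where 9.22% of the 206 miRNAs rose, miR-455-5p and miR-32 (1.47, edgeR adjusted p = 0.000315) rose. There miR-365-3p fell by 0.85 (edgeR adjusted p = 0.00917) and 9 promoters did not pass, with a median of -0.13 beside -0.02 over all miRNAs.

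miR-32 had 284 ± 104 CPM (SD, n = 7) in Hampshire, 78.5 ± 23.8 (SD, n = 7) in Pietrain and 94.5 ± 32.4 (SD, n = 8) in Large White. miR-365-3p had 335 ± 85.5 CPM (SD, n = 7) in Hampshire, 563 ± 147 (SD, n = 7) in Pietrain and 587 ± 123 (SD, n = 8) in Large White. Its cluster partner miR-193b was not analysed here. miR-196a, which directs white fat progenitors to the brown fate in mouse, had 84.9 ± 77.0 CPM (SD, n = 7) in Hampshire, 164 ± 93.7 (SD, n = 7) in Pietrain and 273 ± 70.3 (SD, n = 8) in Large White; its log2 fold change of -1.56 in Hampshire over Large White missed the threshold (edgeR adjusted p = 0.0579). miR-196b-5p was at -0.09 in Hampshire over Large White and -0.25 over Pietrain, not called.

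Of 10 miRNAs listed as repressors of the brown programme, 6 were in the files. miR-27a, which represses brown adipocyte differentiation in mouse, rose by 0.89 in Hampshire over Pietrain (edgeR adjusted p = 0.000493) and by 1.01 over Large White (edgeR adjusted p = 0.000155), and the other 5 did not pass. It had 6841 ± 1322 CPM (SD, n = 7) in Hampshire, 3650 ± 894 (SD, n = 7) in Pietrain and 3383 ± 518 (SD, n = 8) in Large White. Of all 206 miRNAs, 10.7% rose in Hampshire over Pietrain and 9.22% over Large White. The repressors had a median of 0.12 over Pietrain and 0.27 over Large White, beside -0.04 and -0.02 over all miRNAs. A promoter, miR-455-5p, and a repressor, miR-27a, were both higher in Hampshire. Neither list had a member called in Pietrain over Large White, where edgeR called 0 of 206 miRNAs (0.0%), 25 had an unadjusted p under 0.05 and DESeq2 called 7, or in thick over thin fat.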

How the data were processed

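The authors deposited, per breed, a table of raw read counts per small RNA sequence with its miRNA name, and a DESeq2 comparison of fat classes in which, per the file headers, each sequence has an average signal, its log2 fold change and error, a test score, and p-values before and after adjustment. Per the submitters' processing notes, bcl2fastq, FastQC and DESeq2 were used with assembly Sscrofa10.2; no source used here gives versions, the aligner or the miRNA release. The tables list no sequence count from 1 to 5, and unnamed sequences (0.0480% of reads) were left out. When the breeds were joined, a sequence or name absent from 1 breed's counts was set to 0 there. Of 250 names, 191 were present for every breed.

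Counts were summed per name, and the 206 names that passed edgeR's filter (minimum count 10) were tested with edgeR 4.0.16's quasi-likelihood test (robust, TMM; limma 3.58.1, R 4.3.3) in 1 fit over the 6 groups and 22 libraries, with fat classes also fitted within each breed (172, 161 and 170 names in Hampshire, Pietrain and Large White). Breed comparisons weight thick and thin fat equally. Adjustment was by Benjamini-Hochberg over all names, threshold 0.05, and edgeR's test was tested on simulated data. Shares of sequence forms were compared by exact two-sided permutation tests in scipy 1.17.1, fat classes within breeds. CPM values are counts scaled to TMM sizes. The labels describe the libraries as separate samples, and p-values measure the spread between them. Intervals of fold changes come from the edgeR fit and include this spread. Reads carry no molecular identifiers, and the Wilson intervals of read shares cover counting error only.

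The members and lists were chosen with earlier results of these data known. The text names, by rule, both members, miRNAs sharing their seed, listed thermogenic miRNAs that passed a test, miR-193b, miR-365-3p and miR-196, the 3 most alike miRNAs by each measure, and leading sequences. The planned test of miR-455 arms was not run, and miR-378 arms were used instead. Alternatives were other scalings, filters and tools (DESeq2 1.42.0, limma-voom), sequences as deposited, exchanged Large White labels and leaving out libraries.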

Additional observations from a re-analysis of the deposited data

Results flagged for a closer look

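In 63 checks of groups of 4 to 10 libraries, 6 found a value far from the rest of its group. About 1 in 20 is found so by chance, but the groups of a fat class lie within those of a breed, so the checks are not independent. Large White thick fat replicate 1 was found by the same A16G share in both of its groups. The A16G share of miR-378 was 3.23% in Hampshire thin fat replicate 1, against 0.365% to 1.29% in the other Hampshire libraries. It was 1.62% in Large White thick fat replicate 1, against 0.781% to 0.837% in the other thick fat and 0.647% to 0.883% in all other Large White libraries. This Large White library is 1 of the pair whose labels fit the authors' deposited table only when exchanged. The share of miR-378 reads that start 1 base later was 12.1% in Hampshire thick fat replicate 4, against 11.0% to 11.3% in the other Hampshire thick fat libraries. The log2 ratio of miR-378 to miR-378-5p was 7.64 in Hampshire thin fat replicate 2, against 8.49 to 9.01 in the other Hampshire libraries. The most abundant sequence held 73.2% of miR-455-5p reads in Pietrain thick fat replicate 4, against 67.7% to 68.0% in the other Pietrain thick fat libraries.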

How the results depend on the processing

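miR-455-5p stayed called higher in Hampshire under all 38 alternatives run against each breed, thick or thin fat alone among them, at 1.07 to 1.55 over Pietrain (edgeR, DESeq2 or limma-voom, adjusted p at most 0.00715) and 0.68 to 1.19 over Large White (adjusted p at most 0.0453). Combined with the other alternatives, 1 class of fat alone lost the call in 4 of 36 (thick, over Large White), 2 of 36 (thin, over Pietrain) and 21 of 36 (thin, over Large White), with values from 0.32 to 1.32 in the last. No alternative called miR-378, or either miRNA between fat classes. Values of miR-378 that changed sign, none of them called, were -0.064, -0.13 and -0.18 in Hampshire over Large White and -0.23, -0.20 and -0.18 over Pietrain with upper quartile scaling, library totals and sequences as deposited, -0.093 over Pietrain in thin fat alone, and -0.051 for Large White fat with exchanged labels. Without the 7 libraries that nearly lacked short joint reads, such values were -0.015 for Pietrain fat and -0.088 in Pietrain over Large White. Counts of called miRNAs moved to 57 for Hampshire over Large White, 7 for Pietrain over Large White, 6 for fat over all breeds, 3 for Hampshire fat, 1 for Pietrain fat and 2 for the fat difference between breeds with DESeq2. Sequences as deposited gave 637 for Hampshire over Large White, 827 over Pietrain, 110 for Pietrain over Large White and 65 for Pietrain fat, over 4054 sequences, or 3023 for Pietrain fat. Fat over all breeds gave 1 with RLE or upper quartile scaling and 3 without the 7 libraries, which also gave 1 for Pietrain fat, and the fat difference between breeds gave 1 without the 2 libraries richest in miR-122. With sequences found in every library only, the same-start share of miR-378 was called in Hampshire against Pietrain (-1.08 points, exact permutation, adjusted p = 0.00389), and uncalled miR-455-5p values changed sign: the leading sequence's share to 0.041 in Hampshire against Pietrain, -0.029 in Pietrain against Large White and -0.33 for fat, and mean length to 0.0044 nt, 0.00848 nt and -0.00408 nt in Hampshire against Large White, Hampshire against Pietrain and Pietrain against Large White. The miR-378 arm ratio of Hampshire against Large White turned to -0.027 with leading sequences only. The cause of these moves was not tested.

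Leaving out each library in turn, uncalled fold changes that changed sign ran from -0.67 to 0.39 for miR-455-5p in Hampshire fat, and for miR-378 from -0.020 to 0.82 in Hampshire fat, -0.12 to 0.25 in Pietrain fat, -0.087 to 0.31 in Hampshire over Large White and -0.21 to 0.16 over Pietrain. Counts ran from 0 to 3 for fat over all breeds, 0 to 1 for Hampshire fat, 0 to 2 for Pietrain fat, 0 to 1 for Large White fat, 0 to 2 for the difference between breeds, 22 to 40 for Hampshire over Large White and 22 to 43 over Pietrain. The leading sequence's share of miR-455-5p ran from -1.42 to 0.19 points in Hampshire against Pietrain and -0.76 to 1.59 for fat, its same-start share from -0.12 to 0.052 in Hampshire against Pietrain and -0.15 to 0.031 for fat, and its mean length from -0.0115 to 0.00045 nt in Hampshire against Large White and -0.0112 to 0.00652 nt for fat. Mean length of miR-378 ran from -0.00261 to 0.00731 nt in Hampshire against Large White, -0.00227 to 0.00931 nt against Pietrain and -0.00596 to 0.0056 nt in Pietrain against Large White. Its same-start share ran from -0.62 to -0.41 points in Hampshire against Pietrain, called without Pietrain thin fat replicate 2 (-0.62) or Hampshire thick fat replicate 2 (-0.57), and from -0.12 to 0.037 for fat. Its arm ratio of Hampshire against Pietrain ran from 0.19 to 0.42. No paired analysis was possible because the replicate numbers were given in accession order and pair no libraries. Of the thermogenic list, 5 promoters were called in Hampshire over Large White by DESeq2, upper quartile scaling or library totals, and 3 by edgeR with TMM. These 3 alternatives also called 2 repressors, against 1. Over all 206 miRNAs they called 57, 40 and 45 in that order, against 36 by edgeR with TMM. Depth limits rare forms most, since counts under 6 per sequence are listed as 0.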
